A study of Ovis aries with 24 samples.

Results

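The genes described here are 35 genes of the hypoxia response and of glycolysis, picked by gene symbol from the count tables of a study of preterm lambs. They were chosen with earlier results of these data known, so the counts called among them are not independent support. Of the 35 genes, 34 had a row under their symbol in both tables and all 34 passed the filter on low counts in both tissues. PKM, which encodes a pyruvate kinase, had no row under its symbol and is not analysed here. Each table held 27716 entries, of which 16824 were tested in liver and 18616 in periventricular white matter (PVWM), the deep brain tissue beside the ventricles.

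The study sequenced poly-A selected RNA of liver and PVWM from 13 preterm lambs (Ovis aries), 11 of which gave both tissues, in 24 libraries with 4 lambs per tissue and group. Unventilated lambs received neither ventilation nor drug and were 127 or 128 days of gestation. Surfactant lambs were mechanically ventilated and given intratracheal poractant alpha, a surfactant from pig lung, at 2.5 mL/kg. Budesonide lambs were ventilated and given the same surfactant together with budesonide, a glucocorticoid, at 0.25 mg/kg. Each ventilated group held 3 lambs of 126 days and 1 of 127 days. Ventilated and unventilated lambs thus overlapped in age only at 127 days, and age cannot be cleanly told apart from ventilation. Each ventilated group also held 1 male and 3 females, against 2 males, 1 female and 1 lamb without a sex label in each tissue of the unventilated group. The labels give neither the length of ventilation nor the blood oxygen of any lamb. Every ventilated lamb received surfactant, so ventilation and surfactant cannot be told apart, and the comparison of the ventilated groups addresses what budesonide added.

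Cells sense oxygen through prolyl hydroxylases of the EGLN family, which mark the HIF alpha subunits HIF1A and EPAS1 (HIF-2 alpha) for degradation when oxygen is present. In low oxygen the subunits accumulate, pair with ARNT and switch on genes for glucose uptake, glycolysis, blood vessel growth, mitochondrial turnover and matrix assembly. Since HIF alpha is set mainly at the protein level, its mRNA is not a readout of HIF activity, and many of these genes also respond to glucocorticoids, catecholamines, insulin and inflammatory signals. Fetal liver makes blood cells as well as glucose, and fetal white matter relies on glucose that crosses the vessel wall through SLC2A1.

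Libraries held 16.1 to 23.2 M counts in liver and 14.9 to 17.5 M counts in PVWM (M, counts in units of 1000000). The 6 hepatocyte markers summed to 135661 CPM (counts per 1000000 counts of a library) or more in every liver library and to 206.9 CPM or less in every PVWM library. Astrocyte markers summed to 3730 CPM or more in PVWM and 175.1 CPM or less in liver. In liver, surfactant lamb 049 had the highest value of its group for 31 of the 34 genes and surfactant lamb 007, the only male and the only lamb of 127 days in its group, had the lowest for 28. In PVWM lamb 049 was again the highest of its group for 22 of 34 genes. CPM were computed with TMM scaling. Values per lamb are listed by rising animal number, so that the surfactant lambs are 007, 032, 049 and 051, the budesonide lambs 031, 048, 050 and 054, and the unventilated lambs 057, 058, 059 and 060 in liver and 057, 058, 060 and 061 in PVWM. A gene was called when its adjusted p in edgeR's quasi-likelihood test was under 0.05 over all genes tested.

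In unventilated lambs 19 of the 34 genes differed in level between the tissues and 15 were not called. Levels were set on a joint scale over the 24 libraries. PVWM had the higher level for 13 genes and liver for 6, while over all 20010 genes tested 41.7% were called lower in liver and 36.1% higher. The count of 13 was thus close to the share of all genes, and the count of 6 was below it. Glycolytic enzymes higher in PVWM were HK1, GPI, PFKP, ALDOA, ALDOC, TPI1, GAPDH, PGK1, PGAM1 and LDHA, which is 10 of 13. The same 19 genes were called with median-ratio scaling, without the filter, in both limma-voom fits and without each unventilated library in turn. ALDOC, the aldolase of brain, had 432 ± 68.1 CPM (SD, n = 4) in PVWM and 0.805 ± 0.463 CPM in liver, a log2 difference of liver minus PVWM of -9.04 ± 0.40 (SE), adjusted p = 2.52e-15 by edgeR. LDHA, which turns pyruvate into lactate, had 229 ± 10.1 CPM in PVWM and 41.3 ± 3.45 CPM (SD, n = 4 each) in liver, a log2 difference of -2.47 ± 0.29 (SE), adjusted p = 5.57e-08 by edgeR. PFKFB3 and PFKFB4, which make the activator of phosphofructokinase, and SLC2A3, the high-affinity glucose transporter of neurons, were also higher in PVWM, with log2 differences of -2.67, -1.25 and -2.60.

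Liver had the higher level for 6 genes, among them 1 of the 4 oxygen sensors and HIF alpha subunits. CA9, a carbonic anhydrase that exports acid, had 24.7 ± 6.57 CPM in liver and 0.946 ± 0.127 CPM in PVWM (SD, n = 4 each), a log2 difference of 4.69 ± 0.30 (SE), adjusted p = 1.28e-12 by edgeR. ADM, the vasodilator peptide adrenomedullin, differed by 3.33, EPAS1 by 2.07, the vessel growth factor VEGFA by 1.40, the collagen prolyl hydroxylase P4HA2 by 1.10 and the histone demethylase KDM3A by 0.96, all on the log2 scale. The remaining 15 genes were not called, among them HIF1A at -0.51, SLC2A1 at 0.22, DDIT4 at -0.09 and BNIP3L at -0.00. Whole-tissue RNA mixes cell types, and fewer cells of a type cannot be told apart from less RNA per cell.

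**Figure D1:**
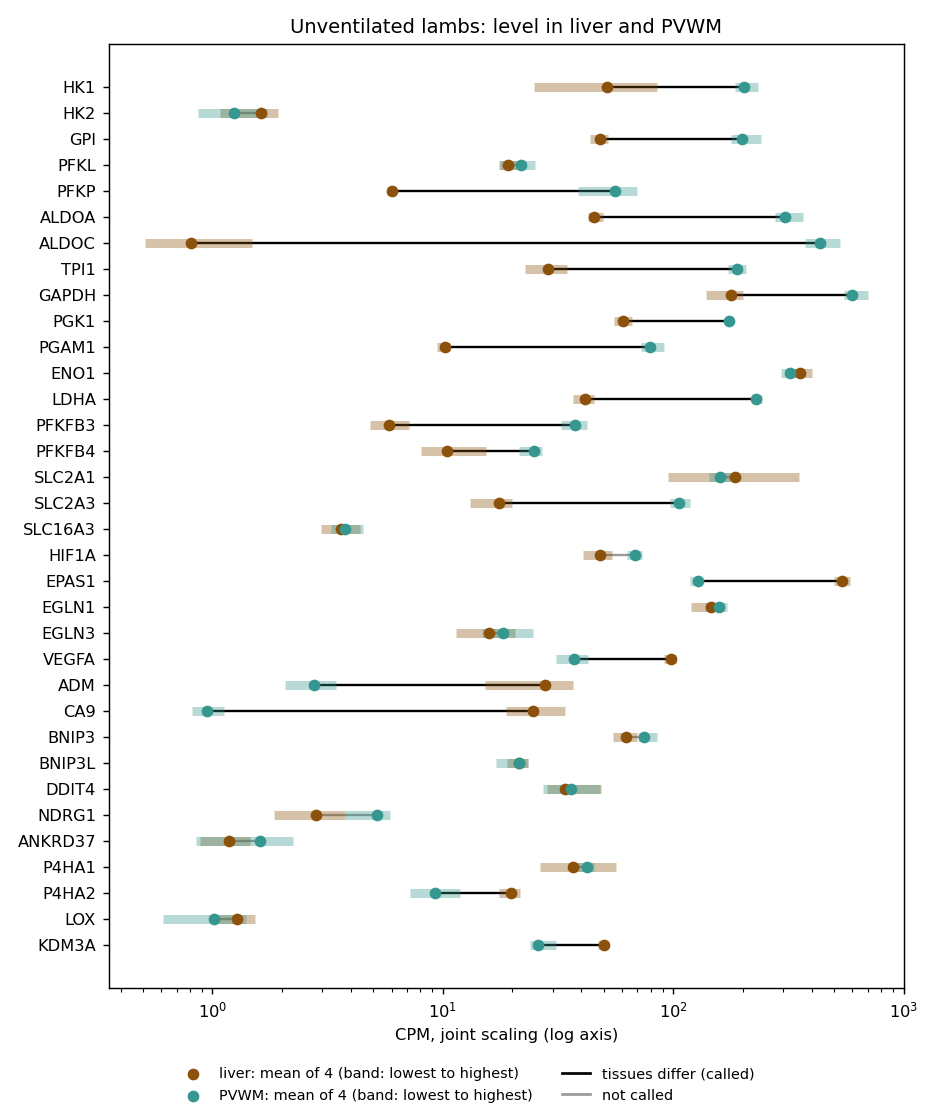
Level of each of the 34 genes in liver (brown) and PVWM (teal) of unventilated lambs, in CPM on a log axis with joint scaling; points are means of 4 lambs, bands run from the lowest to the highest lamb, and black connectors mark called differences. The glycolytic enzymes lie mostly to the right in PVWM, and EPAS1, VEGFA, ADM, CA9, P4HA2 and KDM3A to the right in liver.

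In liver, 19 of the 34 genes were higher and 1 was lower in surfactant lambs than in unventilated lambs. Over all genes tested in liver 21.6% were called higher and 19.5% lower, against 55.9% and 2.94% of these 34. The median log2 change was 0.87 over the 34 genes and -0.02 over all genes tested. Called genes came from every role. They included 7 of 13 glycolytic enzymes, both phosphofructokinase regulators and 2 of 3 transporters. Also called were 3 of 4 oxygen sensors and HIF alpha subunits, and 2 of 4 matrix and chromatin enzymes that use oxygen. The exception in direction was CA9.

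Among the glycolytic enzymes, LDHA was one of the 7 called. Its level was 31.3, 33.5, 33.0 and 27.9 CPM in unventilated lambs, 93.1, 162, 284 and 152 CPM in surfactant lambs and 88.2, 162, 230.3 and 118 CPM in budesonide lambs. All 8 ventilated lambs lay above all 4 unventilated lambs. The mean of the surfactant group was 5.50 times that of the unventilated group, and the log2 change was 2.46 ± 0.34 (SE), adjusted p = 2.31e-04 by edgeR. PFKL, the liver form of phosphofructokinase, stood at 13.3, 15.6, 15.5 and 14.1 CPM, then at 39.6, 57.6, 73.2 and 44.7 CPM with surfactant and at 25.7, 36.7, 35.1 and 26.8 CPM with budesonide. The 3 groups did not overlap for PFKL, with budesonide lambs between the others. Its log2 change with surfactant was 1.88 ± 0.20 (SE), adjusted p = 4.12e-05 by edgeR, the smallest adjusted p of the 34 genes. PGK1, which makes the first ATP of glycolysis, had 44.9, 49.0, 49.2 and 41.6 CPM in unventilated, 51.3, 102, 223 and 114 CPM in surfactant and 65.3, 112, 114 and 74.9 CPM in budesonide lambs. Here too all ventilated lambs were above all unventilated lambs, lamb 007 only just, with a log2 change of 1.41 ± 0.35 (SE), adjusted p = 0.00694 by edgeR.

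The other enzymes called with surfactant were HK2, the inducible hexokinase (log2 change 2.84), the aldolase ALDOA (1.58), PGAM1 (0.93) and PFKP (0.71). GAPDH at -0.22 and ENO1 at -0.41 had values on the other side of 0 and were not called. HK1 (0.13), GPI (0.65), ALDOC (0.50) and TPI1 (0.81) were not called either. The call of PFKP ended without lamb 049 (0.38, adjusted p = 0.104) and, with nearly the same change, without any unventilated lamb (adjusted p up to 0.0596). ENO1 was called lower without lamb 049 (-0.63, adjusted p = 0.0299), TPI1 higher without lamb 007 (1.08, adjusted p = 0.0338) and GPI higher without lamb 007 (0.79, adjusted p = 0.0222) or 051 (0.81, adjusted p = 0.0214). HK2 changed by 1.59, adjusted p = 0.00826 without lamb 049. It was a gene of low counts, with 0.819 to 1.53 CPM in unventilated and 2.06 to 24.2 CPM in surfactant lambs.

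PFKFB3, whose product drives phosphofructokinase forward, had 3.66, 4.61, 4.17 and 5.40 CPM in unventilated lambs. It had 21.8, 76.2, 207 and 90.5 CPM in surfactant lambs and 40.4, 38.9, 43.5 and 45.1 CPM in budesonide lambs. The groups with and without ventilation were far apart, the 4 budesonide lambs lay close together and the surfactant lambs were spread widely. The surfactant mean was 22.1 times the unventilated mean, with a log2 change of 4.47 ± 0.52 (SE), adjusted p = 7.79e-05 by edgeR and of 3.78, adjusted p = 7.95e-05 without lamb 049. PFKFB4, its relative, had 7.47, 11.4, 6.41 and 6.30 CPM in unventilated, 10.4, 15.8, 12.3 and 12.1 CPM in surfactant and 45.8, 38.1, 23.7 and 30.5 CPM in budesonide lambs. Unventilated and surfactant lambs overlapped, and the budesonide lambs were above both without overlap. Its surfactant change was 0.68 ± 0.24 (SE), adjusted p = 0.0414 by edgeR, a call that ended without any 1 of 7 lambs (032, 048, 049, 051, 057, 059 and 060), at 0.51 to 0.68 with adjusted p up to 0.153.

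Of the transporters, SLC2A3 had the largest change of the 34, from 9.87 to 14.7 CPM in unventilated to 24.1 to 1650.0 CPM in surfactant lambs, a log2 change of 5.36 ± 1.12 (SE), adjusted p = 0.00263 by edgeR. The mean rested on lamb 049, and without it the log2 change was 3.71, adjusted p = 0.0063. SLC16A3, the lactate exporter, changed by 1.89 ± 0.45 (SE), adjusted p = 0.00559 by edgeR. SLC2A1, the glucose transporter of red cells and vessel walls, had 133, 259.7, 75.7 and 90.4 CPM in unventilated, 37.9, 92.0, 139.6 and 135 CPM in surfactant and 144, 304, 126 and 177 CPM in budesonide lambs. The 3 groups overlapped, and its log2 change with surfactant of -0.47 was not called, with a 95% interval of -1.45 to 0.51. The summed level of 7 erythroid markers ranged as widely, from 420.6 to 2564 CPM in unventilated, 846 to 1802 CPM in surfactant and 1480 to 3525 CPM in budesonide lambs, and its part in SLC2A1 was not tested.

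HIF1A mRNA had 36.1, 36.5, 32.5 and 40.9 CPM in unventilated, 51.6, 87.7, 247 and 204 CPM in surfactant and 73.2, 86.5, 72.5 and 67.3 CPM in budesonide lambs. All ventilated lambs exceeded all unventilated ones, with lambs 049 and 051 far above the rest, and the log2 change with surfactant was 2.02 ± 0.38 (SE), adjusted p = 0.00151 by edgeR. EPAS1, the HIF alpha subunit of vessels and liver, had 423, 375, 398 and 442 CPM in unventilated, 676, 628, 755 and 662 CPM in surfactant and 583, 552, 516 and 401 CPM in budesonide lambs. The 4 surfactant lambs were above every other lamb, while unventilated and budesonide lambs overlapped, and the surfactant change was 0.73 ± 0.15 (SE), adjusted p = 0.00203 by edgeR. EGLN3, the most inducible of the prolyl hydroxylases, changed by 1.62 ± 0.61 (SE), adjusted p = 0.0492 by edgeR, near the threshold, and by 0.83, adjusted p = 0.243 without lamb 049. That call also ended without lamb 032, 050 or any unventilated lamb, with adjusted p of 0.0516 to 0.113. EGLN1, the main oxygen sensor, had a log2 value of 0.43 and was not called, but was without lamb 007 (0.51, adjusted p = 0.0411).

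Of the secreted and acid-handling genes, CA9 fell. It had 25.8, 16.2, 19.1 and 14.2 CPM in unventilated lambs, 2.89, 4.26, 6.55 and 4.07 CPM with surfactant and 2.74, 1.49, 3.96 and 2.70 CPM with budesonide. Every ventilated lamb was below every unventilated lamb, the surfactant mean was 4.23 times lower and the log2 change was -2.08 ± 0.31 (SE), adjusted p = 3.58e-04 by edgeR. VEGFA had 77.9, 69.2, 82.0 and 69.0 CPM in unventilated, 69.2, 101, 202 and 98 CPM in surfactant and 57.7, 70.9, 67.9 and 53.6 CPM in budesonide lambs. Lamb 049 was high and lamb 007 lay among the unventilated lambs, and the surfactant change of 0.66 ± 0.26 (SE), adjusted p = 0.0599 by edgeR was not called. Without lamb 007 it was called, at 0.85, adjusted p = 0.0103. ADM changed by 2.30 ± 0.72 (SE), adjusted p = 0.0222 by edgeR and by 0.94, adjusted p = 0.142 without lamb 049. Its call also ended without unventilated lamb 057 (2.23, adjusted p = 0.0575) or 058 (2.09, adjusted p = 0.0595).

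BNIP3L, a receptor for the removal of mitochondria, had 14.5, 17.2, 16.5 and 16.9 CPM in unventilated, 30.7, 43.5, 48.5 and 39.2 CPM in surfactant and 31.2, 38.4, 34.9 and 38.9 CPM in budesonide lambs. Ventilated and unventilated lambs did not overlap, spread within groups was small, and the surfactant change was 1.32 ± 0.16 (SE), adjusted p = 8.28e-05 by edgeR. DDIT4 (REDD1), an inhibitor of mTORC1 induced by low oxygen and by glucocorticoids, had 22.2, 35.9, 23.4 and 21.4 CPM in unventilated, 36.2, 77.6, 422 and 100.4 CPM in surfactant and 117, 285, 179.6 and 132 CPM in budesonide lambs. Lamb 007 with surfactant was just above the highest unventilated lamb, and all other ventilated lambs were well above it. The log2 change with surfactant was 2.63 ± 0.62 (SE), adjusted p = 0.0054 by edgeR, and 1.43, adjusted p = 0.0128 without lamb 049. BNIP3, the other mitophagy receptor, was at 0.61, NDRG1 at 1.16 and ANKRD37 at -0.43, none of them called.

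Of the matrix and chromatin enzymes, P4HA1, which hydroxylates collagen, changed by 1.97 ± 0.42 (SE), adjusted p = 0.00313 by edgeR. LOX, an oxidase that crosslinks collagen, changed by 2.97 ± 0.75 (SE), adjusted p = 0.00776 by edgeR. Without lamb 049 the change of LOX was 1.98, adjusted p = 0.0303. P4HA2 was at 0.67 and not called, but was called without lamb 007 (0.83, adjusted p = 0.04). KDM3A, a histone demethylase that uses oxygen, had 39.0, 38.1, 37.7 and 38.3 CPM in unventilated, 49.4, 49.6, 54.1 and 56.9 CPM in surfactant and 73.6, 90.7, 104 and 54.1 CPM in budesonide lambs. Its surfactant lambs were all above the unventilated lambs, yet the change of 0.46 ± 0.17 (SE), adjusted p = 0.0514 by edgeR just missed the threshold. It was called without lamb 007 (0.49, adjusted p = 0.0498), 050 (0.46, adjusted p = 0.0331) or 054 (0.46, adjusted p = 0.0155).

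**Figure D2:**
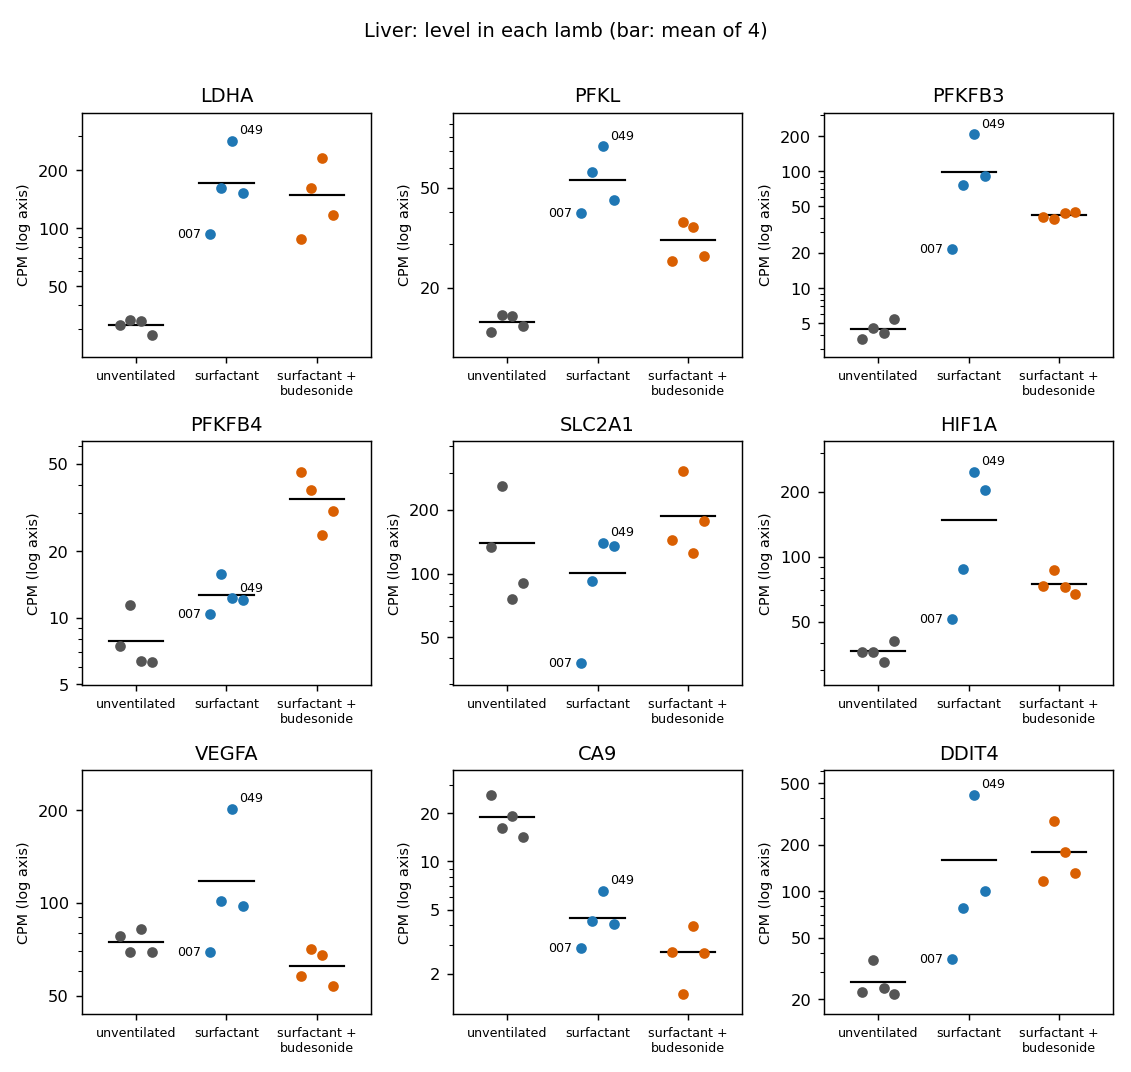
Level of 9 genes in liver of each lamb, in CPM on log axes that differ by panel; each point is 1 lamb, bars are means of 4, and surfactant lambs 007 and 049 are numbered. LDHA, PFKL, PFKFB3, HIF1A and DDIT4 are higher and CA9 lower in all ventilated lambs than in all unventilated lambs, PFKFB4 is highest with budesonide, and SLC2A1 and VEGFA overlap.

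Leaving out a surfactant lamb moved the liver count in either direction. It went to 15 higher and 2 lower without lamb 049, and to 25 higher and 1 lower without lamb 007. Over all genes tested the same fits gave 3004 higher and 2972 lower of 17043, and 4066 higher and 4043 lower of 17092. With every lamb the all-gene counts were 3629 higher and 3282 lower of 16824. Gestational age was lower in ventilated lambs. Surfactant and unventilated lambs shared only the age of 127 days, in lamb 007 and in lambs 057 and 058. A fit with age therefore cannot separate age from ventilation, whether a call held or ended. With age as a covariate 5 of the 20 calls held: PFKL, LDHA, PFKFB3 and BNIP3L higher and CA9 lower. All 20 kept their direction in that fit, in which LDHA changed by 1.80, adjusted p = 0.0453 and PFKFB3 by 3.82, adjusted p = 0.0188 by edgeR, and over all genes the called share went from 41.1% to 8.31%. The median log2 change of the 34 genes was 0.54 in that fit. Lists of cell markers differed in how many were called with surfactant, beside 21.6% higher and 19.5% lower of all liver genes. Of 6 hepatocyte, 7 erythroid and 4 oligodendrocyte markers tested 0 were called, and of 5 microglia and macrophage markers 2. Among other lists for brain cells, 3 of 4 astrocyte, 2 of 2 oligodendrocyte precursor and 0 of 1 neuron markers were called. Of 8 neutrophil and myeloid markers 6 were higher in surfactant than in unventilated liver, with summed levels of 38.6 to 106.8 CPM in unventilated, 119.8 to 316.7 CPM in surfactant and 124.6 to 194.6 CPM in budesonide lambs. Of 6 endothelial markers 3 were higher with surfactant, with summed levels of 269.2 to 337.8 CPM, 375.8 to 490.5 CPM and 232.3 to 279.2 CPM in the same order. Their part in the changes of the 34 genes was not tested.

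Between the ventilated groups 30 of the 34 genes were not called in liver. In budesonide against surfactant lambs 2 of the 34 genes were higher, PFKFB4 and KDM3A, and 2 were lower, PFKL and VEGFA, beside 4.01% higher and 7.85% lower over all genes. The median log2 change was -0.39 over the 34 genes and -0.01 over all genes tested, and 25 of 34 had a negative value. PFKFB4 changed by 1.45 ± 0.24 (SE), adjusted p = 0.0044 by edgeR, a mean 2.73 times that of the surfactant group with no overlap between lambs, and it was called in every alternative fit. KDM3A changed by 0.62 ± 0.17 (SE), adjusted p = 0.0377 by edgeR, and lamb 054 with budesonide lay among the surfactant lambs.

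PFKL fell to a mean 1.73 times lower with budesonide, a log2 change of -0.79 ± 0.20 (SE), adjusted p = 0.0231 by edgeR, which left it above the unventilated lambs. VEGFA fell by 0.91 ± 0.26 (SE) on the log2 scale, adjusted p = 0.042 by edgeR, with 1 surfactant lamb, 007, inside the budesonide range. Endothelial markers fell alongside, 4 of 6 called, and their part in the VEGFA change was not tested. LDHA at -0.21 (95% interval -0.91 to 0.49), PGK1 at -0.42 (-1.16 to 0.32) and DDIT4 at 0.17 (-1.10 to 1.43) were not called. SLC2A1 was at 0.89 (-0.09 to 1.88) and also not called.

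The PFKL call ended without lamb 031, 032, 049 or 054, at -0.77 to -0.62 with adjusted p of 0.0511 to 0.0745. Among the fits that left out 1 lamb, the KDM3A call held only without lamb 051, 054 or 059, and otherwise had adjusted p of 0.0512 to 0.0998. Among the same fits the VEGFA call held only without lamb 007 or 051, and otherwise had adjusted p of 0.0517 to 0.106, with a change of -0.53 without lamb 049. All 4 calls held with gestational age as a covariate. Without lamb 007, 8 of the 34 genes were called in this comparison, 1 higher and 7 lower. Calls over all genes rose too, to 1036 higher and 1790 lower of 17092, from 674 and 1320 of 16824 with every lamb. The lower genes of the 34 then included HIF1A at -1.27, adjusted p = 0.00965, PFKFB3 at -1.57, adjusted p = 0.00442, and SLC2A3 at -3.06, adjusted p = 0.025 by edgeR. Without lamb 049 the median log2 change of the 34 genes went to -0.03. PFKFB4 was then the 1 gene of the 34 called, beside 341 higher and 786 lower of all 17043 genes.

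Budesonide lambs against unventilated lambs gave 15 higher and 2 lower genes of 34, beside 23.3% higher and 23.7% lower over all genes, with a median log2 change of 0.70 over the 34 and 0.00 over all. The median over the 34 was 0.19 with gestational age as a covariate. This comparison and the surfactant comparison share the unventilated lambs. LDHA changed by 2.25 ± 0.34 (SE), adjusted p = 2.21e-04, PFKFB3 by 3.23 ± 0.50 (SE), adjusted p = 2.55e-04 and PFKFB4 by 2.13 ± 0.25 (SE), adjusted p = 3.99e-05, all by edgeR. PFKFB4 was thus 4.37 times its unventilated mean in budesonide lambs and 1.60 times in surfactant lambs, both groups being ventilated. PFKL changed by 1.09, PGK1 by 0.98, BNIP3L by 1.14, DDIT4 by 2.79, HIF1A by 1.04 and KDM3A by 1.08 on the log2 scale, each called. HK2, ALDOA, PGAM1, SLC2A3, P4HA1 and LOX were the other genes called higher, at 0.81 to 3.05. The HIF1A call ended without any 1 of the budesonide or unventilated lambs, at 0.96 to 1.09 with adjusted p up to 0.0818. The PGK1 call ended without lamb 032, 048, 050, 051 or any unventilated lamb, with adjusted p up to 0.0837. SLC2A3 lost its call without lamb 048 (2.00, adjusted p = 0.126), 050, 051 or any unventilated lamb, P4HA1 without lamb 050 or 057, and PGAM1 without lamb 050, 057 or 058, with adjusted p up to 0.07 for PGAM1. LOX changed by 2.40, adjusted p = 0.0196 without lamb 048.

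CA9 reached its lowest level in budesonide lambs, 6.91 times below the unventilated mean, a log2 change of -2.79 ± 0.32 (SE), adjusted p = 3.74e-05 by edgeR. GAPDH, the enzyme often used as a reference gene, fell by 0.75 ± 0.25 (SE) on the log2 scale, adjusted p = 0.0244 by edgeR, with 53.3 to 106 CPM against 105 to 157 CPM in unventilated lambs. The ranges overlapped slightly, and the call ended without lamb 031 (-0.59, adjusted p = 0.0699), 048, 057 or 059. EPAS1 at 0.32 (called without lamb 054, at 0.43, adjusted p = 0.0247) and VEGFA at -0.25 were not called, nor was SLC2A1 at 0.43. With gestational age as a covariate 5 of the 17 calls held, LDHA, PFKFB3, PFKFB4, BNIP3L and CA9, while over all genes the called share went from 47% to 17.6%.

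**Figure D3:**
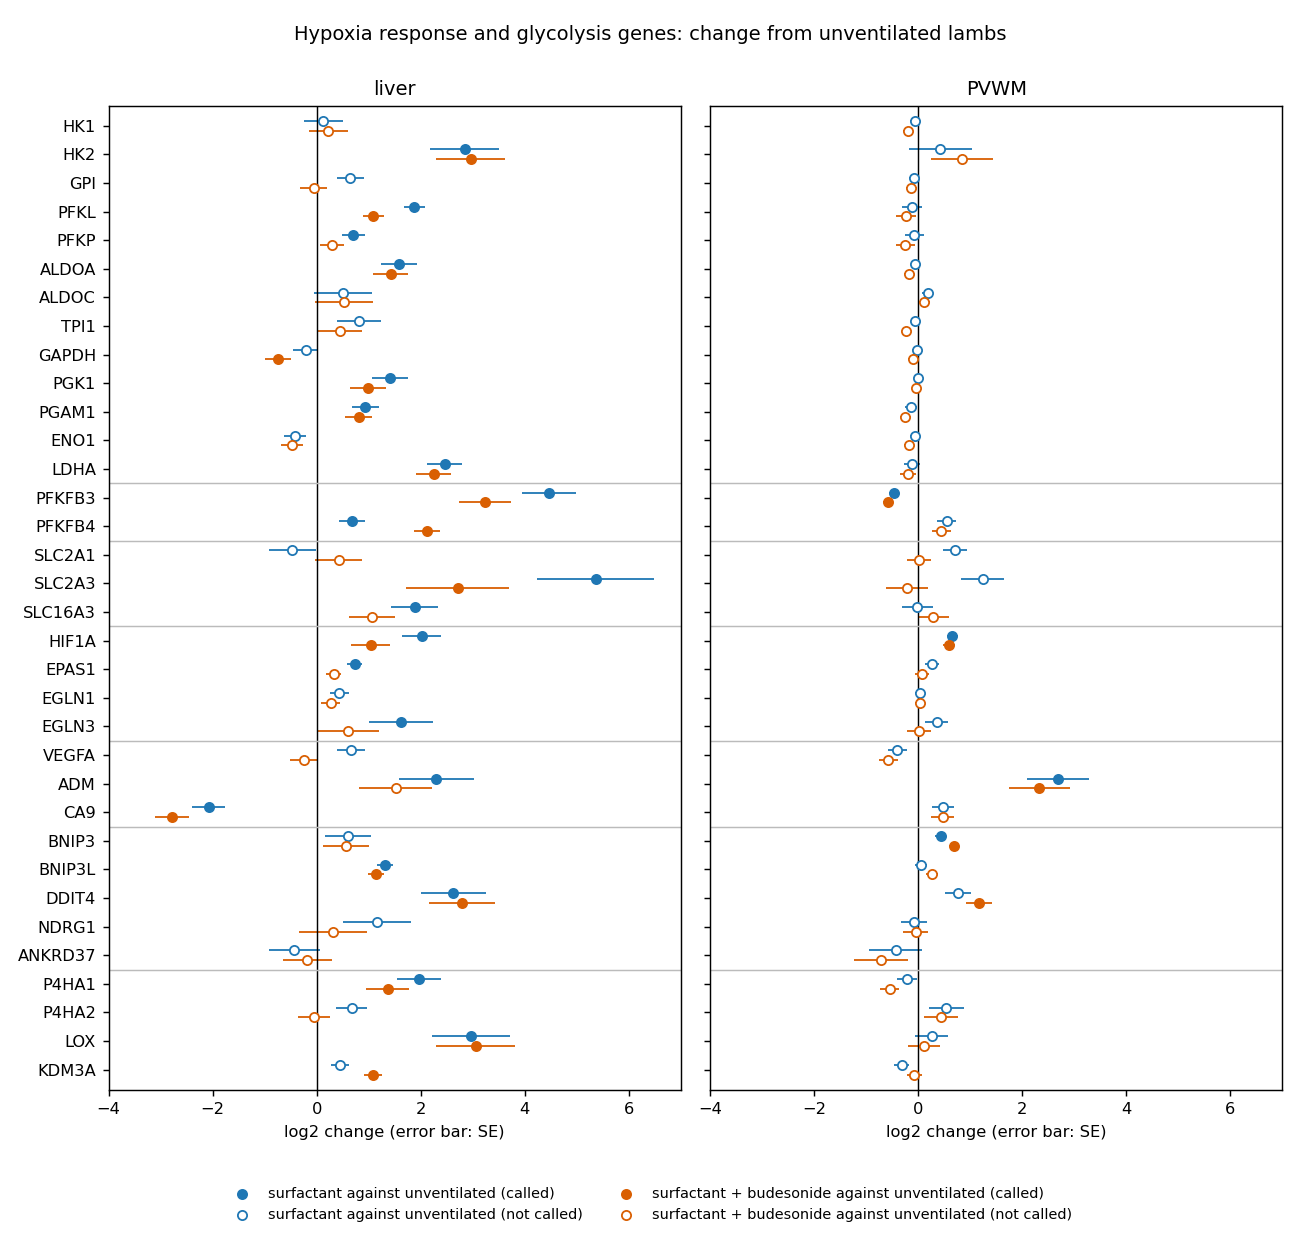
Log2 change from unventilated lambs of the 34 genes in liver and PVWM, for surfactant (blue) and surfactant with budesonide (orange) lambs; bars are standard errors, filled points were called and grey lines separate the roles. In liver 19 and 15 genes are called higher, and in PVWM no glycolytic enzyme is called, while HIF1A, ADM and BNIP3 are called higher and PFKFB3 lower in both comparisons.

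In PVWM the glycolytic enzymes did not pass the test in any comparison, and the genes that did were HIF1A, ADM, BNIP3, DDIT4 and PFKFB3. With surfactant 3 of the 34 genes were higher and 1 was lower than in unventilated lambs, beside 1.35% higher and 0.698% lower over all genes. The median log2 change was -0.01 over the 34 genes and 0.02 over all. Of the 34 genes 11 had an unadjusted p under 0.05 with surfactant and 13 with budesonide against unventilated lambs. The share of all genes at that p was not counted. DESeq2 called 3 higher and 1 lower with surfactant, beside 495 and 326 of all 20241 genes. It called 4 higher and 3 lower with budesonide against unventilated lambs, beside 1088 and 996 of 19759. By edgeR 0 of 13 glycolytic enzymes were called with surfactant, 0 of 13 had an unadjusted p under 0.05 and DESeq2 called 0. With budesonide against unventilated edgeR and DESeq2 again called 0 of 13, and 3 had an unadjusted p under 0.05. HK2 had the widest spread of these, with log2 values of 0.42 (95% interval -0.89 to 1.73) with surfactant and 0.84 (-0.45 to 2.13) with budesonide against unventilated lambs.

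HIF1A had 80.7, 87.6, 94.6 and 97.5 CPM in unventilated lambs, 131, 124, 174 and 137 CPM with surfactant and 146, 142, 123 and 130.1 CPM with budesonide. Every ventilated lamb was above every unventilated lamb, and the ventilated groups overlapped. The log2 change was 0.65 ± 0.11 (SE), adjusted p = 0.00857 with surfactant and 0.59 ± 0.11 (SE), adjusted p = 0.00476 with budesonide, both by edgeR against unventilated lambs. EPAS1 had 170.1, 174, 158 and 174 CPM in unventilated, 181, 214, 258 and 157 CPM in surfactant and 192, 164, 151 and 201 CPM in budesonide lambs, overlapping throughout. Its log2 values of 0.26 and 0.07 against unventilated lambs were not called, and EGLN1 and EGLN3 were not called in PVWM.

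ADM had 3.68, 3.53, 2.76 and 4.58 CPM in unventilated, 6.67, 9.49, 47.9 and 30.0 CPM in surfactant and 13.5, 34, 15.8 and 9.5 CPM in budesonide lambs. All ventilated lambs were above all unventilated lambs, over a wide range led by lamb 049. The surfactant mean was 6.47 times and the budesonide mean 5.0 times the unventilated mean, with log2 changes of 2.69 ± 0.59 (SE), adjusted p = 0.0345 and 2.32 ± 0.59 (SE), adjusted p = 0.0283 by edgeR. The surfactant call of ADM ended without lamb 049 (2.07, adjusted p = 0.0827) and without lamb 050, 051 or any unventilated lamb, with adjusted p up to 0.147. The budesonide call ended without lamb 048 (1.82, adjusted p = 0.0842), 050 or any unventilated lamb. The 6 endothelial markers summed to 388 CPM in lamb 049 and to 200.2 to 252.7 CPM in the other surfactant lambs. In unventilated and budesonide lambs they summed to 164.7 to 254.5 CPM, and their part in ADM was not tested.

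PFKFB3 moved the other way from liver. It had 54.5, 43.5, 48.4 and 51.3 CPM in unventilated, 40.6, 33.4, 36.7 and 33.1 CPM in surfactant and 33.5, 36.1, 32.6 and 30.1 CPM in budesonide lambs. Every ventilated lamb was below every unventilated lamb. It fell by 0.46 ± 0.10 (SE) with surfactant, adjusted p = 0.0278, and by 0.58 ± 0.10 (SE) with budesonide, adjusted p = 0.00231, on the log2 scale by edgeR. The surfactant call ended without lamb 032, 049, 051, 057, 060 or 061, at -0.48 to -0.41 with adjusted p up to 0.0951, and the budesonide call held without each lamb in turn.

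BNIP3 had 109, 95.1, 95.4 and 93.6 CPM in unventilated, 137, 107, 151 and 133 CPM in surfactant and 143, 161, 164 and 162 CPM in budesonide lambs. Budesonide lambs were all above the unventilated lambs, and surfactant lamb 032 lay within the unventilated range. The log2 change was 0.43 ± 0.10 (SE), adjusted p = 0.0495 with surfactant, at the threshold, and 0.68 ± 0.10 (SE), adjusted p = 0.00107 with budesonide, by edgeR. Among the fits that left out 1 lamb, the surfactant call of BNIP3 held only without lamb 032 or 057, and otherwise had adjusted p of 0.0517 to 0.164. DDIT4 had 61.5, 49.3, 36.3 and 43.2 CPM in unventilated, 62.4, 53.5, 137 and 69.8 CPM in surfactant and 102, 123, 99.3 and 103 CPM in budesonide lambs. The budesonide lambs were clear of the unventilated lambs, while surfactant lamb 032 lay inside the unventilated range and lamb 007 just above it. Its change was called with budesonide (1.17 ± 0.26 (SE), adjusted p = 0.0131 by edgeR) and not with surfactant (0.76 ± 0.25 (SE), adjusted p = 0.173). The budesonide call ended without lamb 060 (1.05, adjusted p = 0.0539).

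LDHA in PVWM had 285, 326, 299 and 301 CPM in unventilated, 277, 260.4, 299 and 272 CPM in surfactant and 162, 292, 291 and 309 CPM in budesonide lambs. Only budesonide lamb 031 stood apart, and the log2 value with surfactant was -0.13 with a 95% interval of -0.47 to 0.21. PGK1 had 222, 234, 231 and 235 CPM, 224, 227, 234 and 232 CPM and 191, 223, 236 and 244 CPM in the same order, a log2 value of -0.01 with surfactant and an interval of -0.17 to 0.16. The intervals leave out changes of the size measured in liver, 2.46 for LDHA and 1.41 for PGK1.

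SLC2A1, which carries glucose across the vessel wall of the brain, had 207, 236, 190.1 and 207 CPM in unventilated, 233, 258, 575 and 311 CPM in surfactant and 182, 206, 207 and 251 CPM in budesonide lambs. Lamb 049 was far above the rest, and the log2 value of 0.71 ± 0.23 (SE), adjusted p = 0.158 by edgeR was not called. Endothelial markers summed to 388 CPM in lamb 049 and to 200.2 to 252.7 CPM in the other surfactant lambs. Their part in SLC2A1 was not tested. SLC2A3 was also highest in that lamb, with 129 to 708 CPM in surfactant against 128 to 152 CPM in unventilated lambs, and was not called (1.23 ± 0.41 (SE), adjusted p = 0.17). Without lamb 007 SLC2A3 was called with surfactant (1.49, adjusted p = 0.0471 by edgeR).

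VEGFA in PVWM had 55.0, 52.7, 41.5 and 45.6 CPM in unventilated, 34.2, 28.8, 54.1 and 30.3 CPM in surfactant and 31.3, 31.7, 28.6 and 39.1 CPM in budesonide lambs. Apart from lamb 049 all ventilated lambs were below the unventilated lambs. Its values of -0.40 ± 0.18 (SE), adjusted p = 0.329 with surfactant and -0.58 ± 0.18 (SE), adjusted p = 0.0762 with budesonide by edgeR were not called. Without lamb 049 it was called lower in both, at -0.65, adjusted p = 0.0304 and -0.58, adjusted p = 0.0101. CA9, at 1.09 to 1.49 CPM in unventilated PVWM, had log2 values of 0.47 and 0.47 with surfactant and with budesonide and was not called.

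**Figure D4:**
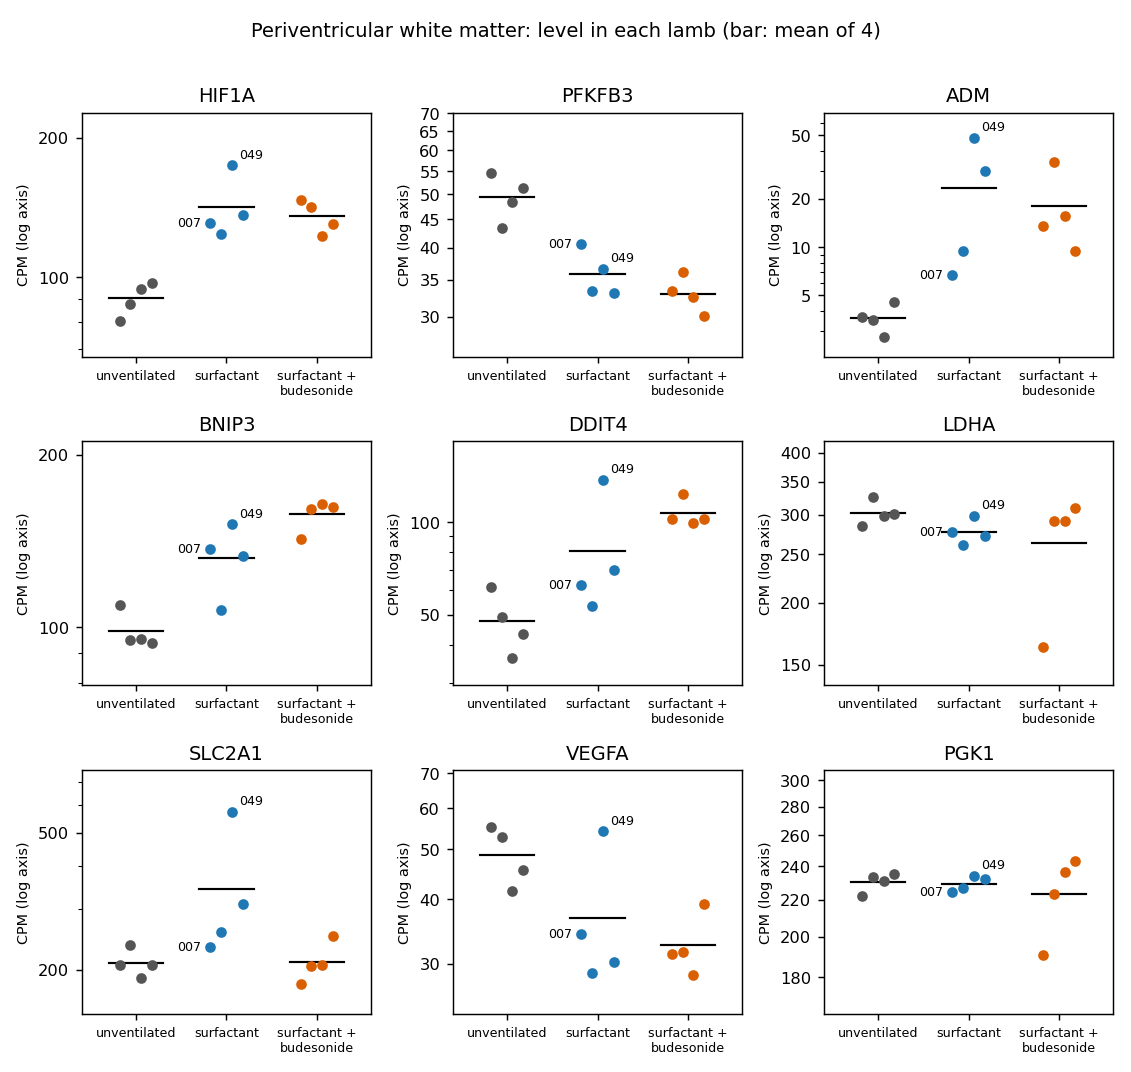
Level of 9 genes in PVWM of each lamb, in CPM on log axes that differ by panel; each point is 1 lamb, bars are means of 4, and surfactant lambs 007 and 049 are numbered. HIF1A and ADM are higher and PFKFB3 lower in all ventilated lambs, the means of BNIP3 and DDIT4 are highest with budesonide, and LDHA and PGK1 stay level apart from LDHA in 1 budesonide lamb.

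Budesonide against unventilated PVWM gave 4 genes higher and 1 lower of 34, beside 4.35% higher and 3.71% lower over all genes, with median log2 changes of -0.05 and 0.01. Between budesonide and surfactant PVWM edgeR called 0 of the 34 genes, beside 0.591% higher and 0.387% lower over all genes. An unadjusted p under 0.05 was found for 3 of the 34 and DESeq2 called 0. The log2 values were -0.06 for HIF1A (95% interval -0.30 to 0.17, not adjusted for the number of genes), 0.41 for DDIT4 (-0.14 to 0.95) and -1.45 for SLC2A3 (-2.34 to -0.56), which without lamb 007 was called at -1.71, adjusted p = 0.0493. In PVWM, oligodendrocyte markers summed to 16373 CPM in surfactant lamb 051 and to 867 to 3506 CPM in the other lambs. Microglia and macrophage markers summed to 68.7 to 87.3 CPM in budesonide lambs and to 136.9 to 191.7 CPM in all others, 3 of 5 called lower with budesonide against surfactant. Their part in the PVWM results was not tested.

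Age and sex of the lambs differed between the groups. Ventilated and unventilated lambs overlapped little in age, so the age fit cannot separate age from ventilation. With gestational age as a covariate 0 of the 4 surfactant calls and 0 of the 5 budesonide calls against unventilated lambs held by edgeR, all 9 with the same direction. HIF1A kept its size in that fit, at 0.67, adjusted p = 0.295 with surfactant, while ADM went to 1.26, adjusted p = 0.928. With sex as a covariate, and lamb 061 without a sex label left out, edgeR called 0 genes with surfactant and 3 with budesonide. Over all genes the share called with surfactant went from 2.05% to 0.0806% with age and to 0.516% with sex.

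Whether liver and PVWM changed differently was tested in 1 fit over the 24 libraries, as the difference of the liver change from that in PVWM (liver minus PVWM). For surfactant against unventilated the difference was called above 0 for 17 of the 34 genes and below 0 for 1, beside 14.6% and 11.2% over all 20010 genes. PFKFB3 differed most clearly, by 5.01 ± 0.53 (SE), adjusted p = 1.06e-06 by edgeR, being higher in liver and lower in PVWM with surfactant. LDHA differed by 2.67 ± 0.39 (SE), adjusted p = 4.54e-05, PFKL by 2.08 ± 0.29 (SE), adjusted p = 2.80e-05 and BNIP3L by 1.34 ± 0.19 (SE), adjusted p = 3.87e-05. CA9 differed by -2.47 ± 0.39 (SE), adjusted p = 8.92e-05 by edgeR, the gene below 0. The other genes above 0 were GPI, PFKP, ALDOA, PGK1, PGAM1, SLC2A3, SLC16A3, HIF1A, VEGFA, DDIT4, P4HA1, LOX and KDM3A, at 0.82 to 4.22. With gestational age as a covariate with a slope for each tissue, an alternative chosen after seeing the data, the calls of PFKL, PFKFB3, BNIP3L and CA9 held, at 4.25, adjusted p = 0.0064 for PFKFB3. The other 14 ended in that fit, LDHA at 1.84, adjusted p = 0.0788 and HIF1A at 0.65, adjusted p = 0.666. With sex as a covariate in the same way 10 of the 18 were called.

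HIF1A was called higher in both tissues with surfactant, and its change was larger in liver by 1.44 ± 0.41 (SE), adjusted p = 0.0124 by edgeR. ADM had close values in both tissues, and the difference of -0.28 ± 0.95 (SE), adjusted p = 0.881 was not called. For budesonide against unventilated 12 genes differed above 0 and 1 below, beside 16.2% and 13.6% over all genes. These included PFKFB3 at 3.89, LDHA at 2.53, PFKFB4 at 1.76 and KDM3A at 1.23, with CA9 at -3.17. With the age covariate 5 of these 13 calls held, those of PFKL, PFKFB3, PFKFB4, KDM3A and CA9, while LDHA was at 1.74, adjusted p = 0.0619. For budesonide against surfactant PFKFB4 was the 1 gene called, at 1.56 ± 0.32 (SE), adjusted p = 0.00939 by edgeR, and 0 were called below 0, beside 1.41% and 2% over all genes.

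**Figure D5:**
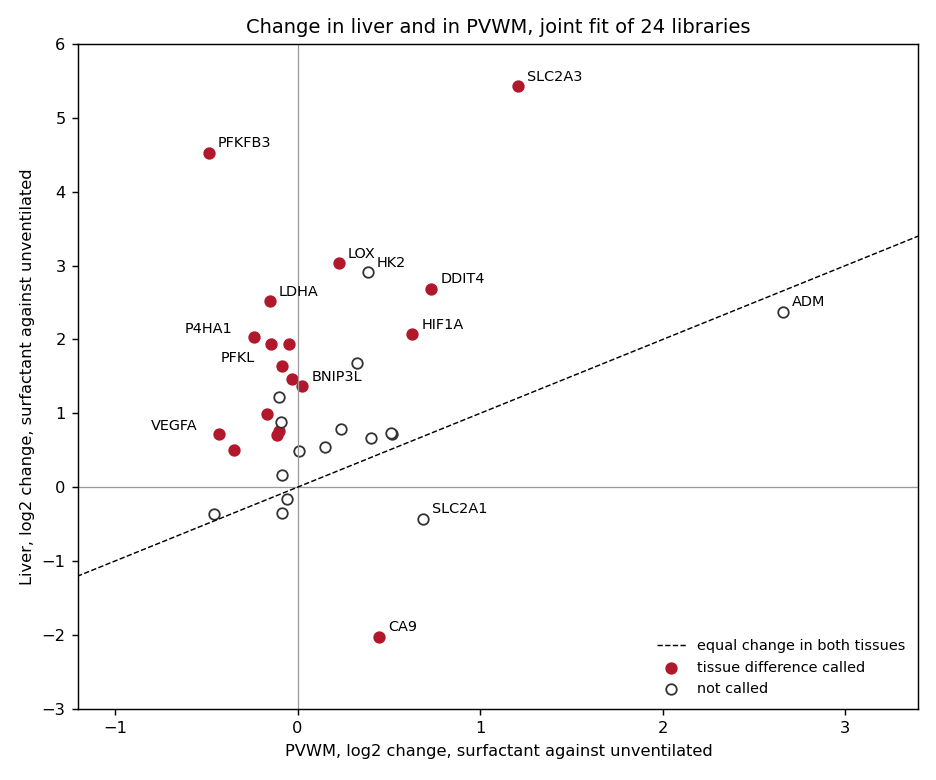
Log2 change with surfactant against unventilated in liver (vertical) and PVWM (horizontal) for the 34 genes, from the joint fit; red points have a called difference between tissues and the dashed line marks equal change. Most red points lie above the line near a PVWM change of 0, ADM lies near the line, and CA9 lies below it.

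Other genes of the same pathways, taken from lists of related enzymes, transporters and regulators, are given by their counts, to be read against the shares of all liver genes called. These shares were 21.6% higher and 19.5% lower for surfactant against unventilated, 23.3% and 23.7% for budesonide against unventilated, and 4.01% and 7.85% for budesonide against surfactant. The lists too were chosen with earlier results of these data known, and an excess over a share is not independent support. A list of other enzymes of glycolysis and of steps linked to it also held PGM1, BPGM, TIGAR, PFKFB1 and PFKFB2. Of its 14 genes tested, 1 was higher and 6 were lower with surfactant than in unventilated liver, with a median log2 change of -0.62. The lower ones included PGM1, which links glucose phosphate to glycogen (-2.33 ± 0.25 (SE), adjusted p = 4.51e-05), and PKLR, the pyruvate kinase of liver (-1.26 ± 0.21 (SE), adjusted p = 7.75e-04), by edgeR. HK3, the hexokinase of myeloid cells and also on the neutrophil and myeloid list, was the higher one (1.35 ± 0.24 (SE), adjusted p = 0.00106). With budesonide against unventilated the same list had 2 higher and 7 lower, and with budesonide against surfactant 2 higher and 1 lower.

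Of 8 other glucose and lactate transporters tested in liver, 2 were higher and 2 lower with surfactant, close to the 21.6% and 19.5% of all liver genes. SLC2A4, the insulin-responsive transporter, changed by -1.88, SLC2A10 by -2.11 and the lactate carrier SLC16A7 by 1.56 on the log2 scale. With budesonide against unventilated 2 were lower, and BSG was the 1 lower gene with budesonide against surfactant. Of 13 other oxygen sensing genes and HIF regulators 2 were higher and 3 lower with surfactant, again close to those shares. CITED2, which competes with HIF for its coactivator, changed by -1.0 ± 0.22 (SE), adjusted p = 0.00362, and ARNT, the partner of HIF alpha, by 0.92 ± 0.22 (SE), adjusted p = 0.00591 by edgeR. Against surfactant, budesonide lambs had CITED2 at 1.10 ± 0.22 (SE), adjusted p = 0.00939 and ARNT at -0.85 ± 0.22 (SE), adjusted p = 0.0284, the opposite directions in a comparison that shares the surfactant lambs.

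Of 32 other hypoxia-inducible genes tested in liver, 14 were higher and 1 lower with surfactant, beside 21.6% and 19.5% of all liver genes, with a median log2 change of 0.44 against -0.02 over all. WSB1 changed by 1.77, BHLHE40 by 3.49 and ANGPTL4 by 2.51. With budesonide against unventilated 15 were higher and 4 lower (23.3% and 23.7% of all genes), and against surfactant 3 were higher and 3 lower (4.01% and 7.85%). In PVWM HIF3A, a HIF alpha subunit that restrains the others and is known to respond to glucocorticoids, was higher with surfactant (1.48 ± 0.21 (SE), adjusted p = 0.00331) and with budesonide (1.92 ± 0.21 (SE), adjusted p = 1.20e-04) by edgeR. With budesonide against unventilated PVWM, where 4.35% of all genes were higher and 3.71% lower, SLC16A1 and SLC2A5 were the 2 of 7 other transporters called higher, at 0.56 and 1.02. ANKZF1 was the 1 other hypoxia-inducible gene of 34 called higher and CXCR4 the 1 called lower there, at 0.37 and -0.79, and CREBBP was the other HIF regulator called higher, at 0.27. Of 13 other enzymes of glycolysis and of steps linked to it edgeR called 0 in PVWM in each of the 3 comparisons. At an unadjusted p under 0.05 there were 0, 1 and 4 for surfactant against unventilated, budesonide against surfactant and budesonide against unventilated. DESeq2 called 0, 0 and 2 in the same order.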

How the data were processed

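RNA-seq gene counts of 24 libraries, 12 of liver and 12 of PVWM, were analysed from the raw count tables that the authors deposited, 1 table per tissue. Per the labels, RNA was extracted with Trizol, poly-A selected and sequenced as paired-end reads. Bowtie2, featureCounts and edgeR are named in the submitters' processing notes. Their versions, the genome build and the strand setting are not given in the sources used here, so reads of a gene and of an overlapping gene on the other strand may not be separated. No coordinates or sequences are printed for this reason.

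The 35 genes and the other gene lists were chosen with earlier results of these data known, and their counts are not independent support. Counts were filtered with filterByExpr and scaled with TMM. They were tested with edgeR's quasi-likelihood test (edgeR 4.0.16, R 4.3.3) in 1 fit of 3 groups per tissue, and in a joint fit of 6 groups over the 24 libraries for comparisons between tissues. Benjamini-Hochberg adjusted p-values over all genes tested were called under 0.05. Changes are fitted log2 values with the standard error taken from the F statistic, and CPM are TMM-scaled. CPM take no account of gene length, so levels were compared between samples and not between genes. Liver norm factors ran from 0.839 to 1.19, and another scaling moved the median change of all genes by at most 0.0571.

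Lambs were the replicates, and no library pair agreed within sampling noise. Of the 13 animals 11 gave both tissues, and deviations of same-animal libraries correlated at 0.0794 to 0.198 (median 0.123), against a median of -0.008 for different animals, so limma-voom fits with and without the animal as a block were among the alternatives. The other alternatives were DESeq2 1.42.0, median-ratio scaling, no filter, gestational age or sex as a covariate (for differences between tissues added after seeing the data, with a slope for each tissue), only the groups compared (within a tissue, as was DESeq2), and each library left out in turn. Liver lamb 060 has no sex label there and took that of its PVWM library in the sex fit, while PVWM lamb 061 was left out.

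Values in every lamb are given for LDHA, PGK1, SLC2A1, VEGFA, HIF1A, EPAS1 and DDIT4 whatever their result, and for up to 6 called genes with the smallest adjusted p in each comparison. For each difference between tissues up to 5 were named. Scripts were tested on simulated counts.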

Additional observations from a re-analysis of the deposited data

Results flagged for a closer look

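Among 69 sets of 4 lambs (a named gene in a group of a tissue), 6 held 1 lamb far from the other 3, where chance gives about 1 set in 20. BNIP3 in PVWM was 109 CPM in unventilated lamb 057, against 93.6 to 95.4 CPM in the other 3, and 143 CPM in budesonide lamb 031, against 160.8 to 164 CPM. LDHA in PVWM was 162 CPM in the same lamb 031, against 291 to 309 CPM in the other budesonide lambs. DDIT4 in PVWM was 123 CPM in budesonide lamb 048, against 99.3 to 102.7 CPM. DDIT4 in liver was 35.9 CPM in unventilated lamb 058, against 21.4 to 23.4 CPM, and 422 CPM in surfactant lamb 049, against 36.2 to 100.4 CPM.

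The liver change differed from the PVWM change by edgeR's test of the difference itself for the genes named under each comparison. With surfactant against unventilated lambs the difference on the log2 scale was 5.01 for PFKFB3, 2.67 for LDHA, 2.08 for PFKL, 1.34 for BNIP3L and -2.47 for CA9. With budesonide against unventilated lambs it was 3.89 for PFKFB3, 2.53 for LDHA, 1.76 for PFKFB4, 1.23 for KDM3A and -3.17 for CA9. With budesonide against surfactant lambs it was 1.56 for PFKFB4. Each of these 11 differences was also called with the animal as a block. With gestational age as a covariate in the joint fit the LDHA differences were 1.84 (adjusted p = 0.0788) and 1.74 (adjusted p = 0.0619) by edgeR and not called, and the others were called.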

How the results depend on the processing

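No gene among the 34 changed direction while called under any alternative. With gestational age as a covariate the counts called went to 5 for surfactant and 5 for budesonide against unventilated liver, and to 0 and 0 in PVWM. Shares of all genes called in the same order were 8.31% and 17.6% in liver, and 0.0806% and 1.86% in PVWM. With sex as a covariate and lamb 061 left out, the PVWM counts went to 0 with surfactant and 3 with budesonide against unventilated, beside 0.516% and 3.56% of all genes. Leaving out lamb 061 alone gave 117 higher and 56 lower of all 18789 genes with surfactant. In liver the sex fit ended the surfactant calls of ADM, EGLN3 and PFKFB4, with adjusted p of 0.057 to 0.0695 by edgeR. It ended those of HIF1A, PGK1 and SLC2A3 with budesonide against unventilated, with adjusted p up to 0.117. The called share of all liver genes was then 37.4% and 43.8%. With only the groups compared in the fit, 1 gene was called for budesonide against surfactant in liver, beside 288 higher and 596 lower of all 16051 genes. For surfactant against unventilated in PVWM that fit called 1, beside 109 higher and 65 lower of all 18234 genes. Without the low-count filter the PVWM count was 2, beside 209 higher and 123 lower of 25101. DESeq2 called 7 for budesonide against surfactant in liver, beside 1109 higher and 2026 lower of 18370. Leaving out each library in turn gave 16 to 26 called genes for surfactant against unventilated liver, 11 to 20 for budesonide against unventilated liver and 1 to 8 for budesonide against surfactant liver. Counts over all genes moved between these fits too. For budesonide against surfactant liver they were 325 higher and 682 lower of 17105 without lamb 031, and 1074 higher and 1764 lower of 17058 without lamb 051. In PVWM it gave 1 to 4, 3 to 7 and 0 to 1 for surfactant against unventilated, budesonide against unventilated and budesonide against surfactant. The tissue difference for budesonide against surfactant ranged from 1 to 3, the highest without the liver of lamb 007. With age as a covariate with a slope for each tissue, chosen after seeing the data, the tissue differences called went to 4, 2 and 5 for surfactant against unventilated, budesonide against surfactant and budesonide against unventilated. With sex in the same way they were 10 for surfactant against unventilated, and 1 and 10 for the others. The cause of these shifts was not tested.

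With the animal as a replicate block, limma-voom called 14, 1 and 11 differences between tissues for surfactant against unventilated, budesonide against surfactant and budesonide against unventilated, and 19 differences in level. Without the block it called 13, 1, 11 and 19, and edgeR 18, 1, 13 and 19. Within a tissue no paired analysis was possible because each lamb belongs to 1 group. With 4 lambs per group, lambs varied more in liver, where the common biological coefficient of variation was 0.304, against 0.197 in PVWM. A call also depended on the adjustment over all genes, of which 41.1% were called in liver and 2.05% in PVWM with surfactant. PFKFB4 was called with surfactant in liver at a smaller change relative to its SE than SLC2A1 and DDIT4 in PVWM, neither of them called. The spread alone therefore does not show in which tissue small changes were harder to detect.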
